A study of Homo sapiens with 2 samples.

Results

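The anaphase-promoting complex or cyclosome (APC/C) was followed through 10 genes: the coactivators CDC20 and FZR1, the ubiquitin-conjugating (E2) enzymes UBE2C and UBE2S, the inhibitor FBXO5 and the core subunits ANAPC2, ANAPC4, ANAPC5, CDC16 and CDC27. They were taken by name from the 30482 genes named on the arrays, with every probe that carried the name. All 10 were among the 19218 genes with a probe above background in at least 1 channel of both arrays. PC3, an established human prostate cancer cell line, was transfected with SUB1 siRNA 1 or SUB1 siRNA 2, duplexes that silence the transcriptional coactivator SUB1, or with a non-targeting (Non-T) siRNA. Transfection was repeated at 24 h and RNA was taken 72 h after the first. Each of 2 two-colour arrays on 1 slide carried knockdown RNA in Cy5 and Non-T RNA in Cy3, so that each siRNA had 1 array and no dye swap was made. Whether both arrays carried the same Non-T extract is not stated in the sources used here.

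The APC/C is a ubiquitin ligase that marks mitotic proteins, cyclin B and securin among them, for destruction by the proteasome. CDC20 activates it in mitosis and FZR1 (also called CDH1) from late mitosis through G1, UBE2C starts ubiquitin chains on its substrates, UBE2S lengthens them and FBXO5 (EMI1) inhibits the complex before mitosis. In cycling cells, transcripts of several of these activators and enzymes peak late in the cell cycle, whereas most core subunits are made at a steadier level.

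SUB1 was the gene with the lowest log2 ratio of knockdown over Non-T on each array. The brightest of its 4 probes gave -3.30 with siRNA 1 and -3.26 with siRNA 2, where -1 is a 2-fold lower level. The dimmest, A_32_P170444, gave -1.81 and -1.57. A_32_P2333 gave -3.75 and -3.50, and A_24_P320328 gave -3.35 and -3.16. Well above background were 54.3% of gene spots in Cy3 on each array, and 67.2% and 64.5% in Cy5. Among probes spotted 10 times, the median SD of the log2 ratio between spots was 0.0781 with siRNA 1 and 0.0741 with siRNA 2, which is error within an array only. Of the markers of PC3, all probes of KRT8, KRT18, VIM and EPCAM were above background in Cy3. KLK3, which PC3 is known to lack, had 1 of 3 probes above background, at a Cy3 signal of 18634 on the siRNA 1 array. That probe is listed under a splice variant, and the probe for the RefSeq transcript, at 87.2, was not above background. KLK2 had 1 of 3 probes above background, at 129. Of markers of other cell types, PTPRC was not above background, and PECAM1 (148) and COL1A1 (164) were dim.

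With knockdown of SUB1, the ratios of CDC20, UBE2C, UBE2S and FBXO5 were the lowest of the 10 on average, and those of the core subunits ANAPC4, CDC16 and CDC27 were the closest to 0. At a 2-fold threshold, 0 of the 10 genes were lower with siRNA 1, beside 0.609% of all genes, and 2 were lower with siRNA 2, beside 1.07% of all genes. Those 2 were CDC20 and UBE2C. No gene of the 10 was 2-fold lower with both siRNAs, where 0.14% of all genes were, and none was 2-fold higher, where 0.208% of all genes were with siRNA 1 and 0.614% with siRNA 2. Of the 10 genes, 9 had a ratio below 0 with siRNA 1 and 10 with siRNA 2, beside 45.9% and 46.4% of all genes. With median centring in place of loess, 7 of the 10 were below 0 with each siRNA, since ANAPC4, CDC16 and CDC27 were above it. With siRNA 2, 9 were below 0 with processed signals and with the authors' ratios, where ANAPC4 was above it. With median spot signals 9 were, and ANAPC2, dim in Cy3, was above it. The median log2 ratio of the 10 was -0.36 with siRNA 1 and -0.25 with siRNA 2, and the median of all genes was 0.02 with each. The median of the 10 was -0.56 and -0.39 with processed signals, and with siRNA 2 it was -0.14 with median centring.

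Tested over both siRNAs against 0 with limma, none of the 10 genes passed a Benjamini-Hochberg adjusted p of 0.05, and 0.0052% of all genes did, SUB1 being the 1 gene that passed. At an unadjusted p under 0.05, 5 of the 10 were lower, beside 9.9% of all genes. These were CDC20, UBE2C, UBE2S, FBXO5 and ANAPC5. Differences between the Non-T channels of the 2 arrays enter the test only as part of each ratio, and without a dye swap the effect of the dye and that of the SUB1 siRNA cannot be told apart. In RNA from whole cultures, fewer cells in a given cycle phase and less RNA per cell cannot be told apart.

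**Figure D1:**
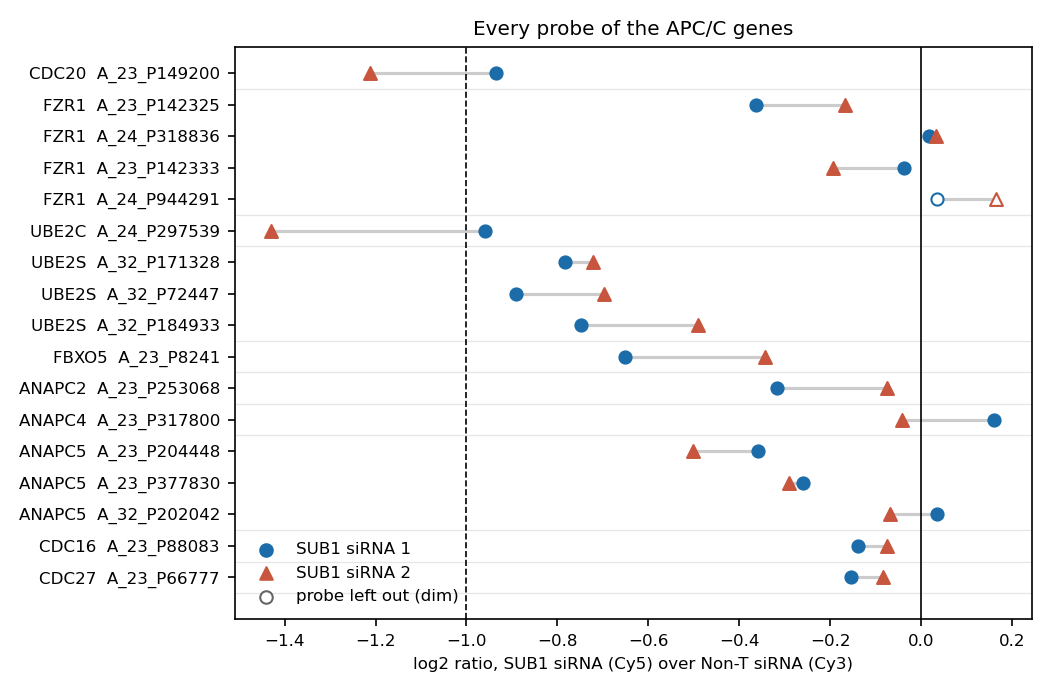
Log2 ratio of SUB1 siRNA (Cy5) over Non-T siRNA (Cy3) for each of the 17 probes, with circles for siRNA 1, triangles for siRNA 2 and a dashed line at 2-fold lower. CDC20 and UBE2C cross the line with siRNA 2 only, and the open symbols are the FZR1 probe left out for low signal.

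Promoter sequences are shown for 3 of the 4 genes with the lowest mean ratios, CDC20, UBE2S and FBXO5, and for CDC27, whose ratios lay near 0. Each is the 250 bases before a RefSeq transcription start in GRCh38.p14, read in the direction of the gene. RefSeq windows matched 9 of the 10 genes, with 11 windows, and UBE2C was not matched. The windows are chr1:43358731-43358980 on the plus strand for CDC20, chr19:55407789-55408038 on the minus strand for UBE2S, chr6:152983042-152983291 on the minus strand for FBXO5, which has a further window, and chr17:47189296-47189545 on the minus strand for CDC27. Capitals mark the letters TTTGAA (as in the cell cycle genes homology region), CCAAT (the core bound by NF-Y) and GCGGGAA (similar to E2F sites) on either strand.
CDC20: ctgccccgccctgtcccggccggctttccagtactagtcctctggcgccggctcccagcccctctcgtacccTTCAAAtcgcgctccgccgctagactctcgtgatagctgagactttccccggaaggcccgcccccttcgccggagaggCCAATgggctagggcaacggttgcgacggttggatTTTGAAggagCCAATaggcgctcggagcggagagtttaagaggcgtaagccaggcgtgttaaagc
UBE2S: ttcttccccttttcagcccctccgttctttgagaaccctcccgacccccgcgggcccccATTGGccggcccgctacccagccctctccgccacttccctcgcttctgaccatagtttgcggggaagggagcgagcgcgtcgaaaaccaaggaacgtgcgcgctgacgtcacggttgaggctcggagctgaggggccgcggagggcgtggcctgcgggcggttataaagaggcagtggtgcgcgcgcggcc
FBXO5: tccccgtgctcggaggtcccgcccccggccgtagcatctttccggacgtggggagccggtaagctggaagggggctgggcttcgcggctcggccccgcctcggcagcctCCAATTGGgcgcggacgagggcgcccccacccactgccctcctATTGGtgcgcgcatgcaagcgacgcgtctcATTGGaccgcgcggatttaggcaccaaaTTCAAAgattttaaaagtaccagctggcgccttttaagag
CDC27: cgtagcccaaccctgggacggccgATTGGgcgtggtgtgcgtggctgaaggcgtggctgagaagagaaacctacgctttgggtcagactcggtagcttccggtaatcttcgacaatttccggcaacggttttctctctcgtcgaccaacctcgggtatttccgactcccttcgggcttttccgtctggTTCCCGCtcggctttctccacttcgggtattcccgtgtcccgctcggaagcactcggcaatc

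The CDC20 window held TTTGAA at 178 to 173 bases before the start on the reverse strand and at 65 to 60 on the forward strand, and CCAAT at 100 to 96 and at 55 to 51. The FBXO5 window held TTTGAA at 40 to 35 bases before the start on the reverse strand and CCAAT at 4 places, the first pair of which overlap on opposite strands. UBE2S had CCAAT alone, at 191 to 187 bases before the start. CDC27 had CCAAT at 226 to 222 and GCGGGAA at 62 to 56, both on the reverse strand. TTTGAA was in 3 of the 11 windows, of CDC20, FZR1 and FBXO5, and in 13.3% of 35116 RefSeq windows of this length. CCAAT was in 6 of the 11 windows and in 32.0% of all, and GCGGGAA was in 3 of the 11, of CDC16, CDC27 and FZR1, and in 5.52% of all. A match of letters describes the sequence and was not tested as a binding site.

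CDC20, the mitotic coactivator that is also the target of the spindle checkpoint, had 1 probe, A_23_P149200 (chr1:43599124-43599183, hg18). On the siRNA 1 array its normalised log2 intensity was 9.31 with Non-T and 8.37 with SUB1 siRNA. On the siRNA 2 array it was 9.18 with Non-T and 7.96 with SUB1 siRNA. The Non-T values thus lay above the knockdown values on both arrays without overlap. With ANAPC2, dim in Cy3, left aside, only ANAPC4 of the 10 genes lacked this order. CDC16 and CDC27, with ratios near 0, had it too, and its share of all genes was not counted. The log2 ratio of CDC20 was -0.93 with siRNA 1, which left 52.3% of the Non-T level, and -1.21 with siRNA 2, which left 43.2%. Among the 19218 genes CDC20 had the 148th lowest ratio with siRNA 1 and the 108th lowest with siRNA 2. Its mean log2 ratio was -1.07 ± 0.11 (SE, n = 2 arrays; limma adjusted p = 0.114).

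UBE2C, the E2 enzyme that places the first ubiquitins on APC/C substrates, had 1 probe, A_24_P297539 (chr20:43878932-43878991, hg18). Its log2 intensity was 12.30 with Non-T and 11.34 with SUB1 siRNA on the siRNA 1 array. On the siRNA 2 array the values were 12.19 and 10.76. As for CDC20, both knockdown values lay below both Non-T values, an order that CDC16 and CDC27 shared. UBE2C had the lowest ratio of the 10 genes on each array, -0.96 with siRNA 1 (51.4% of the Non-T level) and -1.43 with siRNA 2 (37.1%), and ranked 134th and 52nd lowest of all genes. CDC20 was the lower of the pair with siRNA 1 under offset 16 (-1.003 against -0.959), processed signals (-1.09 against -0.89) and median centring (-0.75 against -0.69), and the 2 were level in the authors' ratios. With siRNA 2, CDC20 was lower with processed signals (-1.51 against -1.38). The mean log2 ratio was -1.19 ± 0.15 (SE, n = 2 arrays; limma adjusted p = 0.114).

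UBE2S, the E2 enzyme that extends the chains begun by UBE2C, had 3 probes on chromosome 19, all bright. The brightest, A_32_P171328 (chr19:60604497-60604556, hg18), read 12.95 with Non-T and 12.16 with SUB1 siRNA on the siRNA 1 array, and the siRNA 2 array gave 13.12 and 12.40. Its log2 ratios were therefore -0.78 and -0.72, close to each other, and left 58.1% and 60.6% of the Non-T level. The second probe, A_32_P72447, gave -0.89 and -0.70, and the third, A_32_P184933, gave -0.75 and -0.49. The 3 probes had the same sign on both arrays, but the second and the third overlap on the genome (chr19:60604913-60607497 and chr19:60604899-60607483, hg18) and share sequence. The mean log2 ratio of the brightest probe was -0.75 ± 0.10 (SE, n = 2 arrays; limma adjusted p = 0.114). With median centring of the arrays, in place of loess, it was -0.44.

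FBXO5, which blocks the APC/C until mitosis begins, had 1 probe, A_23_P8241 (chr6:153333540-153333599, hg18). Its log2 intensity was 8.42 with Non-T and 7.77 with SUB1 siRNA on the siRNA 1 array, and the siRNA 2 array gave 8.51 and 8.17. Both knockdown values were below both Non-T values, an order not particular to FBXO5. The ratio was -0.65 with siRNA 1 (63.7% of the Non-T level) and -0.34 with siRNA 2 (78.9%), so that its order between the siRNAs was the opposite of that of CDC20 and UBE2C. With median centring the ratio with siRNA 2 was -0.18. The mean was -0.50 ± 0.12 (SE, n = 2 arrays; limma adjusted p = 0.148).

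FZR1, the coactivator of late mitosis and G1, had 4 probes on chromosome 19 that differed in signal and in ratio. The brightest, A_23_P142325 (chr19:3485457-3485516, hg18), read 8.43 with Non-T and 8.06 with SUB1 siRNA on the siRNA 1 array, and the siRNA 2 array gave 8.41 and 8.24. Its log2 ratios were -0.36 and -0.17, with a mean of -0.27 ± 0.11 (SE, n = 2 arrays; limma adjusted p = 0.255). A_24_P318836 gave 0.02 and 0.03, and A_23_P142333, which was not well above background in Cy3 on the siRNA 1 array, gave -0.04 and -0.19. The probe left out, A_24_P944291, was not well above background in either channel of either array. The probes other than the brightest were dim, with Cy3 signals of 123, 109 and 89.8 on the siRNA 1 array, against 367 for the brightest. The cause of their different ratios was not tested. The mean of the brightest probe became -0.11 with median centring.

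**Figure D2:**
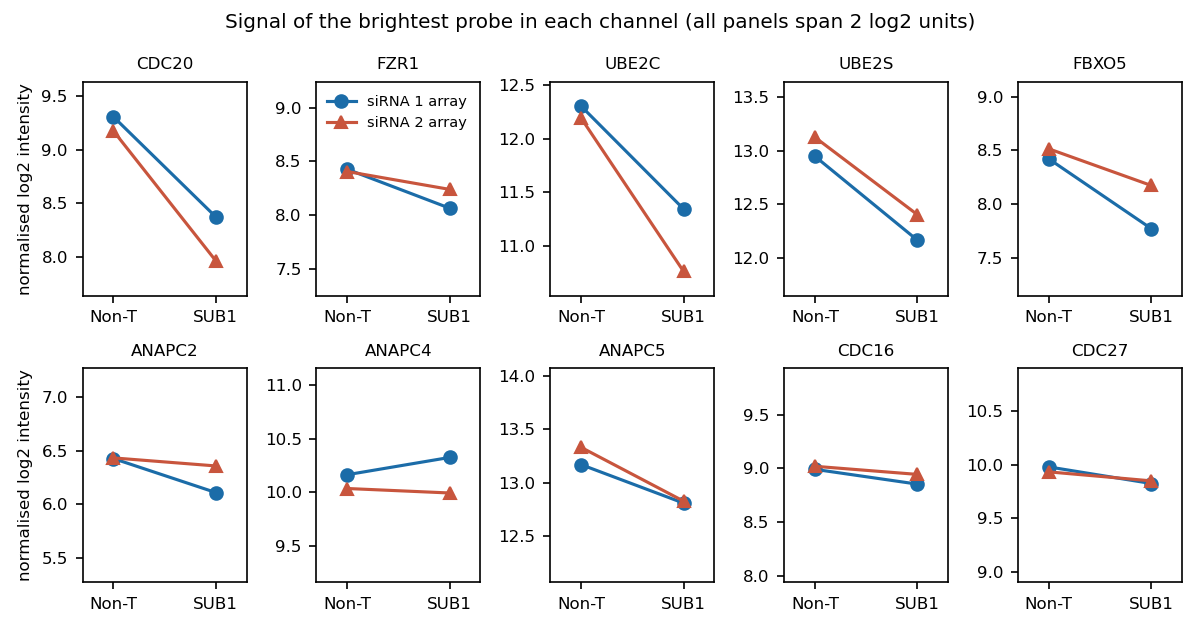
Normalised log2 intensity of the brightest probe of each gene with Non-T siRNA (Cy3) and SUB1 siRNA (Cy5), 1 line an array, with circles for the siRNA 1 array and triangles for the siRNA 2 array; levels are not comparable between panels. Knockdown signals lie below the Non-T signals on both arrays for 9 of the 10 genes, all but ANAPC4, beside 30.3% of all genes. ANAPC2, dim in Cy3, is among the 9. The gaps are on average widest for CDC20, UBE2C, UBE2S and FBXO5, and the lines of CDC16 and CDC27 are nearly flat.

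Among the 4 core subunits followed that were above background in both channels, ANAPC5, a subunit of the platform that holds the catalytic and substrate-binding arms together, had the lowest mean ratio. Its brightest probe, A_23_P204448 (chr12:120230591-120230650, hg18), read 13.17 with Non-T and 12.81 with SUB1 siRNA on the siRNA 1 array, and the siRNA 2 array gave 13.33 and 12.83. The log2 ratio was -0.36 with siRNA 1 and -0.50 with siRNA 2, with a mean of -0.43 ± 0.10 (SE, n = 2 arrays; limma adjusted p = 0.144). The second probe, A_23_P377830, gave -0.26 and -0.29. The third, A_32_P202042, gave 0.04 and -0.07. It lies on the opposite strand to the others (chr12:120269135-120269990, hg18), and it was not well above background in Cy3 on the siRNA 1 array. The ratio of the brightest probe depended on the normalisation, since its mean was -0.09 with median centring.

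CDC16 and CDC27 belong to the arm of the complex that receives coactivators and substrates. CDC16, with the probe A_23_P88083 (chr13:114042973-114045520, hg18), read 8.99 with Non-T and 8.85 with SUB1 siRNA on the siRNA 1 array, and the siRNA 2 array gave 9.02 and 8.94. Its log2 ratios were -0.14 and -0.08 (limma adjusted p = 0.558). CDC27, with the probe A_23_P66777 (chr17:42552818-42552877, hg18), read 9.98 and 9.82 on the siRNA 1 array, and the siRNA 2 array gave 9.93 and 9.85. Its ratios were -0.15 and -0.08 (limma adjusted p = 0.515). The 95% interval of the mean log2 ratio was -0.36 to 0.15 for CDC16 and -0.37 to 0.14 for CDC27, so these intervals do not reach a 2-fold change, and with median centring the means were above 0, at 0.08 and 0.10.

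ANAPC4, another platform subunit, had a ratio above 0 with siRNA 1 and one near 0 with siRNA 2. Its probe, A_23_P317800 (chr4:25029038-25029097, hg18), read 10.16 with Non-T and 10.32 with SUB1 siRNA on the siRNA 1 array, and the siRNA 2 array gave 10.03 and 9.99. The log2 ratios were 0.16 and -0.04, with a mean of 0.06 and a 95% interval of -0.22 to 0.34 (limma adjusted p = 0.776). The ratio with siRNA 2 was above 0 with median centring (0.19), processed signals (0.03) and the authors' ratios (0.0032). ANAPC2, the cullin-like subunit that carries the catalytic core, was dim. Its probe, A_23_P253068 (chr9:139190086-139194488, hg18), was well above background in Cy5 on both arrays and not well above background in Cy3 on either. Its log2 intensity was 6.43 with Non-T on each array and 6.11 and 6.36 with siRNA 1 and siRNA 2, and no fold is given for it. Its measured ratios are counted above, and without it the median log2 ratio of the other 9 genes was -0.36 with siRNA 1 and -0.34 with siRNA 2.

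By role, the median ratios of the 5 coactivators, E2 enzymes and inhibitor were -0.78 and -0.72 with siRNA 1 and siRNA 2 on the log2 scale, and all 5 were below 0 on both arrays, beside 30.3% of all genes. The 5 core subunits had medians of -0.15 and -0.08, with 4 below 0 on both arrays, ANAPC2 with its dim Cy3 signal among them. That count was 3 of 5 with median spot signals and 3 of 4 with the filter on both channels. With median centring the medians of the first set were -0.51 and -0.39, and those of the core subunits were above 0, at 0.05 and 0.11, with 2 of the 5 below 0 on both arrays. At an unadjusted p under 0.05 in limma, 4 of the 5 in the first set and 1 of the 5 core subunits were lower, beside 9.9% of all genes. Counted by probe, 13 of the 16 probes kept were below 0 with siRNA 1 and 15 with siRNA 2, beside 47.5% and 47.7% of all probes. None of the 16 was 2-fold lower with siRNA 1, beside 0.557% of all probes, and 2 were with siRNA 2, beside 0.923%.

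The siRNAs were then set side by side, gene by gene. The log2 ratio with siRNA 2 minus that with siRNA 1 was -0.47 for UBE2C and -0.28 for CDC20. For UBE2C the Cy5 signal was 0.58 lower on the siRNA 2 array on the log2 scale, and the Non-T signal was 0.11 lower. For CDC20 those values were 0.41 and 0.13. The SD of the same between-array difference over all genes was 0.313 in Cy5 and 0.117 in Cy3. For both genes the gap in the knockdown channel was the larger. The difference was 0.31 for FBXO5, 0.20 for FZR1, -0.20 for ANAPC4 and -0.14 for ANAPC5, and it was under 0.08 in size for UBE2S, CDC16 and CDC27. With the mean of all probes of a gene it was 0.17 for UBE2S and 0.02 for FZR1, and for FZR1 it was 0.07 in the authors' ratios and with median spot signals. None is given for ANAPC2, which was not well above background in Cy3. Over the 10 genes, ANAPC2 included, the difference had a median of 0.06 and an SD of 0.25, and over all genes a median of -0.0022 and an SD of 0.31. With 1 array for each siRNA, these differences were not tested.

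**Figure D3:**
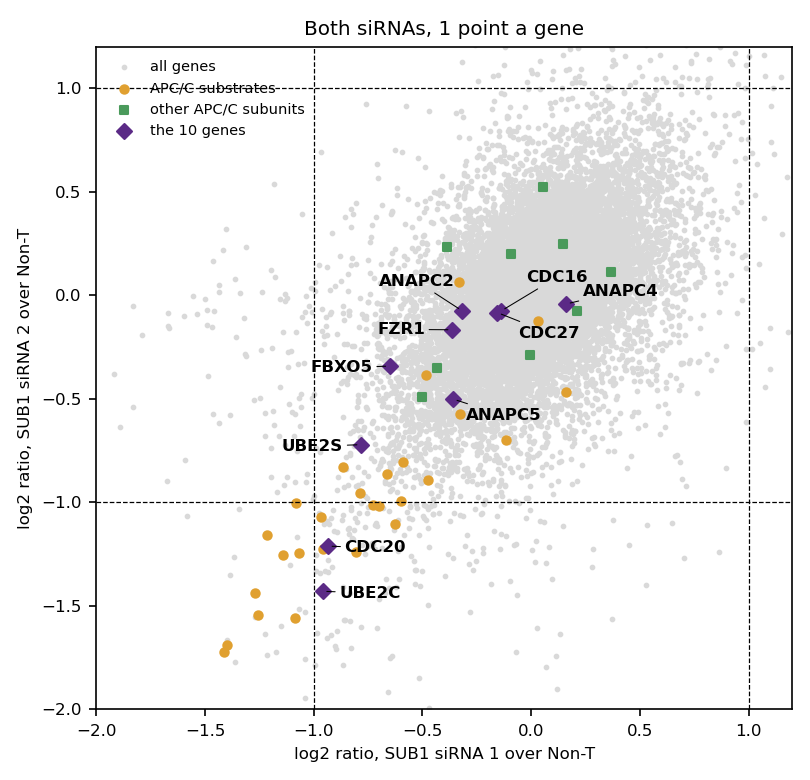
Log2 ratio over Non-T with siRNA 1 (horizontal) against siRNA 2 (vertical), 1 point a gene, with dashed lines at 2-fold; genes beyond the axes, SUB1 among them, are not drawn. UBE2C and CDC20 lie below the horizontal line and just right of the vertical one, and UBE2S lies inside both lines.

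The other genes of the pathway were read from lists of known subunits, regulators and substrates. All 9 other APC/C subunits were measured, and their medians were -0.01 with siRNA 1 and 0.11 with siRNA 2. None was 2-fold lower or higher with either siRNA, and 2 were lower at an unadjusted p under 0.05 in limma, beside 9.9% of all genes. ANAPC15, which helps to release checkpoint proteins from the complex, had ratios of -0.50 and -0.49. ANAPC1, the largest scaffold subunit, had -0.43 and -0.35, and CDC26, the small partner of CDC16, had 0.05 and 0.52.

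Of 11 regulators of the APC/C, 9 were measured, with medians of -0.28 and -0.07. With siRNA 1, 1 of the 9 was 2-fold lower, beside 0.609% of all genes, and with siRNA 2, 2 were, beside 1.07%. MAD2L1, which binds CDC20 in the checkpoint complex, was lower with both siRNAs, at -1.40 and -1.67. BUB1B, which binds CDC20 in the same complex, had -0.94 and -1.34, values near those of CDC20. TRIP13, the ATPase that takes the checkpoint complex apart, had -0.48 and -0.57. At an unadjusted p under 0.05, 4 of the 9 were lower, beside 9.9% of all genes.

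Of the 27 substrates of the APC/C, all were measured, and their medians were -0.79 with siRNA 1 and -1.01 with siRNA 2. With siRNA 1, 9 were 2-fold lower, beside 0.609% of all genes, and with siRNA 2, 15 were, beside 1.07%. The same 9 were lower with both, beside 0.14% of all genes. The ratio was below 0 on both arrays for 24 of the 27, beside 30.3% of all genes, and 23 were lower at an unadjusted p under 0.05, beside 9.9%. PLK1, a mitotic kinase, had -1.41 and -1.72, HMMR, a spindle protein, had -1.40 and -1.69, and CENPF, a kinetochore protein, had -1.26 and -1.55. CDC20 and UBE2C had ratios within the range of these substrates, which spanned -1.41 to 0.16 with siRNA 1 and -1.72 to 0.06 with siRNA 2. None of the 27 passed an adjusted p of 0.05 in limma.

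A second ubiquitin ligase of the cell cycle and the rest of the E2 family served for comparison. The 10 genes of the SCF ligase had medians of 0.05 and 0.14, none was 2-fold lower or higher, and at an unadjusted p under 0.05 in limma 2 were lower, beside 9.9% of all genes, and 2 higher, beside 11%. CKS1B, a cofactor of the SCF, had -0.80 and -0.65, CAND1, which exchanges its substrate receptors, had 0.70 and 0.59, and the receptor FBXW7 had 0.60 and 0.61. Of 31 other E2 enzymes, 30 were measured, with medians of 0.03 and -0.06. At an unadjusted p under 0.05, 5 of the 30 were lower, beside 9.9% of all genes, and 1 was higher, beside 11%. UBE2E3 was the 1 enzyme 2-fold lower with siRNA 1, beside 0.609% of all genes, at -1.23, and had -0.68 with siRNA 2. UBE2T, the E2 enzyme of the Fanconi anaemia pathway, had -0.63 and -0.90, and UBE2G2, an enzyme of protein quality control at the endoplasmic reticulum, had 0.57 and 0.59. With siRNA 2 UBE2C was below all 30 of these enzymes, whose lowest ratio was -0.90, and with siRNA 1 it was above UBE2E3. None of the genes in these lists passed an adjusted p of 0.05.

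**Figure D4:**
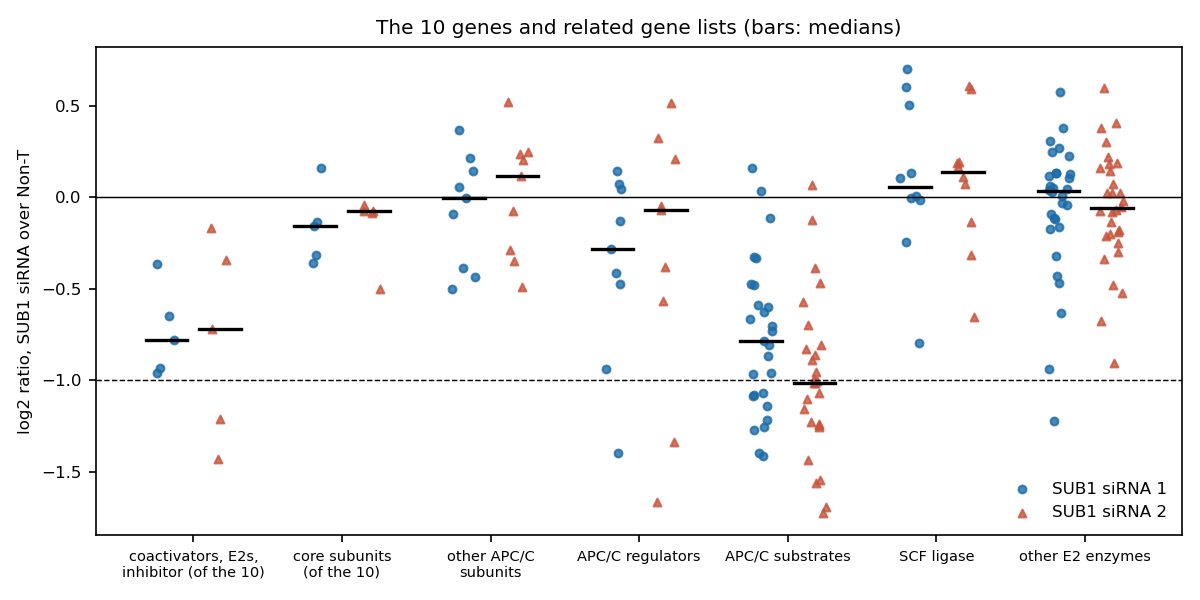
Log2 ratio over Non-T of the 10 genes by role and of 5 related lists, 1 point a gene, with circles for siRNA 1, triangles for siRNA 2, bars at the medians and a dashed line at 2-fold lower. The medians of the coactivators, E2 enzymes and inhibitor (-0.78 and -0.72) lie nearer those of the substrates (-0.79 and -1.01) than those of the core subunits (-0.15 and -0.08).

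Other ways of processing the arrays changed the counts of the 10 genes in few places. CDC20 was 2-fold lower with both siRNAs when the background offset was 16 in place of 50, or when the processed signals of the scanner software were used. With siRNA 1, 143 and 297 of the 19218 genes were 2-fold lower under these settings, against 117. Without the filter on dim probes, CDC20 and UBE2C passed in limma, with adjusted p of 0.0469 and 0.0479, and their highest adjusted p under any alternative was 0.175. Over all alternatives the mean log2 ratio ranged from -1.30 to -0.90 for CDC20, from -1.20 to -0.92 for UBE2C, from -0.75 to -0.44 for UBE2S and from -0.68 to -0.35 for FBXO5.

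**Figure D5:**
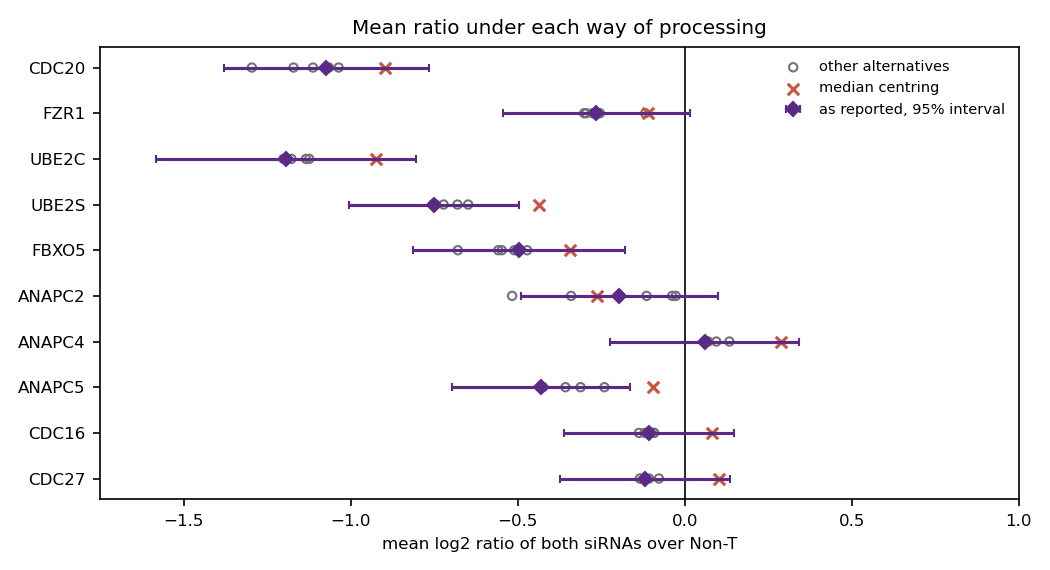
Mean log2 ratio of both siRNAs over Non-T for each gene, as reported with its 95% interval (diamonds), with median centring in place of loess (crosses) and under the other alternatives (open circles). The means of CDC20, UBE2C, UBE2S, FBXO5, FZR1 and ANAPC5 are below 0 under each alternative, though the interval of FZR1 reaches above 0, and the means of CDC16 and CDC27 cross 0 with median centring.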

How the data were processed

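RNA of PC3 cells was compared on 2 two-colour Agilent whole genome arrays. The authors scanned them and deposited, per spot, the intensity and local background in both channels from Feature Extraction 9.5.1.1, whose headers name the build hg18. They also deposited log2 ratios per probe after loess on each array, which were tried as an alternative. Over probes these had a Pearson correlation of 0.958 and 0.970 with ratios computed here from median spot signals without background correction. Their correlation with the ratios of the main processing was not computed. The software's own ratios and p-values were not used. The paper's sequencing, qPCR and immunoblot data were not analysed here.

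Mean signals were corrected with the median background by normexp (offset 50) and normalised by loess (span 0.3, control spots at weight 0) in limma 3.58.1 under R 4.3.3. Outlier spots, 112 and 100 of 43376 gene spots on the siRNA 1 and siRNA 2 arrays, were dropped and spots of a probe averaged. No gene spot of either array was saturated. Probes entered if a share of 0.5 or more of their spots stood well above background, in 1 channel or more, on both arrays, which left 25673 of 41000 probes. The brightest probe stood for a gene. Names came from RefSeq accessions, symbols or synonyms, and otherwise from the array files. A 2-fold ratio was the threshold on each array, as in the study's methods, which name no test for the arrays. The mean of both arrays was tested against 0 with limma and Benjamini-Hochberg adjustment over all 19218 genes. Standard errors, intervals and p-values rest on these 2 arrays only and hold no repeat of either siRNA. For each gene, limma moderates the spread between the arrays with that over all genes, which gives 4.47 degrees of freedom. The procedure was tested on simulated data. The 10 genes, the lists, the motifs and the rule for naming the 3 genes of each list with the largest mean ratio in size were chosen with earlier results of these data known. Alternatives changed the background, the signal, the offset, the normalisation, the filters, the probe that stood for a gene and limma's prior.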

Additional observations from a re-analysis of the deposited data

Results flagged for a closer look

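The siRNAs gave opposite signs for 1 of the 10 genes. The log2 ratio of ANAPC4 was 0.16 for siRNA 1 and -0.04 for siRNA 2, a difference (siRNA 2 minus siRNA 1) of -0.20. With median centring, processed signals and the authors' ratios the siRNA 2 value was above 0 as well (0.19, 0.03 and 0.0032), and the signs were then the same. The probe A_32_P202042, listed under ANAPC5 and dim, had 0.04 and -0.07, a difference of -0.10, but its Cy3 signal with siRNA 1 was not well above background, so that its sign there is not settled. With 1 array for each siRNA, neither difference was tested.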

How the results depend on the processing

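No paired analysis was possible because no replicate number joins the arrays, beyond the pairing of knockdown and Non-T RNA that each ratio holds. Of 574 comparisons of a value with an alternative, 484 kept their direction and side of the threshold or moved little. Some of these hold little information, since the filters and the outlier spots left the ratios of the 10 genes as they were. A mean counted as kept by its sign and its side of the adjusted p threshold, whatever its size. That of ANAPC5, which ranged from -0.43 to -0.09, was kept under every alternative. The direction was reversed for the means of CDC16 (0.082) and CDC27 (0.10) with median centring, which moved the median of all genes to 0.13 and 0.12. The sign with siRNA 2 alone, where no test was made, also changed for ANAPC4 (0.19 with median centring, 0.03 with processed signals, 0.0032 in the authors' ratios). That of ANAPC2, not well above background in Cy3, changed with median spot signals. The number of the 10 genes 2-fold lower with siRNA 1, and with both siRNAs, became 1 with offset 16 and with the software's processed signals. Of all 19218 genes, 143 and 297 were 2-fold lower with siRNA 1 under these settings, against 117. For both siRNAs, the share of all genes is given above for the main processing only. The median of the 10 genes with siRNA 1 was -0.48 with offset 16, -0.56 with processed signals, -0.27 in the authors' ratios and -0.26 with the mean of all probes. With siRNA 2 it was -0.39 with processed signals, -0.14 with median centring and -0.34 with the filter on both channels. Without the filter, 2 of the 10 genes passed an adjusted p of 0.05, and 129 of all genes. That count was 3 with each probe tested on its own, and 0 (3890 to 5707 genes at an unadjusted p under 0.05 in limma) without background correction, with median spot signals, processed signals, median centring or the authors' ratios. The cause was not tested.

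Over all genes, 2-fold lower with siRNA 1 were 297 with processed signals and 56 with median centring, against 117, and with siRNA 2 471 and 101, against 205. Higher with siRNA 1 were 84 with offset 16, 778 with processed signals and 137 with median centring, against 40. With siRNA 2 these were 189, 997 and 266, against 118. The share of higher among genes past 2-fold was 25.5% and 36.5% with siRNA 1 and siRNA 2. It was 37.0% and 41.4% with offset 16, 72.4% and 67.9% with processed signals, 71.0% and 72.5% with median centring, and 36.7% and 47.4% in the authors' ratios. The number of arrays limits the precision. The probe of ANAPC2, the FZR1 probes other than the brightest and the ANAPC5 probe A_32_P202042 were dim.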
